A study of Bos taurus with 6 samples.

Results

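The genes described here are 10 transcripts that report on the extracellular signal-regulated kinase (ERK) pathway and feed back on it, namely the dual-specificity phosphatases DUSP4, DUSP5 and DUSP6, the Sprouty genes SPRY1, SPRY2 and SPRY4, the Sprouty-related genes SPRED1 and SPRED2, and the ETS transcription factors ETV4 and ETV5. They were taken by gene name from the deposited tables, in which each name occurred on 1 of the 32183 listed rows, and all 10 had an FPKM above 0 in all 6 cultures. FPKM is the number of fragments per kilobase of transcript, scaled to the mapped fragments of the library, so levels can be compared between genes per length. The cells were rumen epithelial primary cells (REPC), and their donor was a Holstein bull calf (age 2 weeks, on a milk replacer diet). In the butyrate group, 3 cultures had received 5 mM butyrate in the medium for 24 h, and the other group was made up of 3 cultures labelled as controls. The labels give no time for the controls, and the paper describes them as before treatment. Any difference in time in culture can thus not be told apart from butyrate. All 6 cultures came from 1 calf, so the spread between them is that of cultures and not of animals. Butyrate is a short-chain fatty acid made by rumen fermentation and an inhibitor of histone deacetylases, and the comparison asked how transcript levels differed after the treatment.

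In the ERK pathway, a growth factor receptor activates RAS, and the kinases RAF, MEK and ERK then act in series. Active ERK phosphorylates ETS and AP-1 factors, which switch on a set of genes that includes the pathway's own inhibitors. DUSP6 removes phosphate from ERK in the cytoplasm, DUSP4 and DUSP5 act in the nucleus, Sprouty and SPRED proteins act on RAS and RAF upstream, and ETV4 and ETV5 carry the response on as transcription factors. In epithelia the pathway is known for its part in proliferation and wound closure. The tables hold RNA levels only, and phosphorylated ERK was not measured here.

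The confidence bounds that came with each FPKM imply between 5756609 and 6186809 fragments per culture, with overlapping groups, which is an approximation. The FPKM summed over all genes was lower after butyrate, from 619401 to 629037 against 678035 to 681912 in control, and more genes were above 0, from 17306 to 17510 against 16051 to 16193. The labelled cell type was checked against marker genes, where rose and fell refer to the test described in the next paragraph. Of all genes tested, 32.5% rose and 25.9% fell. Of 9 epithelial markers, 6 rose and 1 fell. Their summed FPKM went from between 2426 and 2535 in control to between 5047 and 5130 after butyrate. Keratins made up most of that sum. Mean FPKM went from 1380 to 1971 for KRT8, from 492 to 1953 for KRT19 and from 72.5 to 500 for KRT14. KRT18, TP63 and EPCAM also rose, EPCAM from only 0.540 to 3.33. KRT5 fell from 401 to 356. CDH1 (49.8 and 48.9) and DSP (7.96 and 7.90) did not pass the test. The summed FPKM of the fibroblast markers was between 4356 and 4512 in control and between 6374 and 6715 after butyrate. Most of it came from VIM and COL1A1, with control means of 2464 and 1149. COL1A2 and COL3A1 were also high, with control means of 459 and 313 and butyrate means of 533 and 370. THY1 went from a mean of 21.5 to 87.6. DCN, LUM and PDGFRA were low, with control means of 6.90, 0.149 and 0.306. All 8 fibroblast markers that were tested rose (the ninth, PDGFRB, was too low). Of the 4 muscle markers 3 fell and 1 rose, with a sum from 1222 to 1258 in control and from 560 to 651 after butyrate. That sum came mainly from CNN1 (means of 805 in control and 216 after butyrate) and ACTG2 (429 and 386). DES and MYH11 were low, with control means of 0.367 and 0.662. Immune and endothelial sums stayed at or under 9.48 and 8.43 in all cultures, PTPRC and CDH5 were listed at 0 throughout, CD68 rose among the 2 immune markers tested and both endothelial markers tested rose. The part of these shifts in the results below was not tested, and in bulk RNA fewer cells of a type cannot be told apart from less RNA per cell.

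After butyrate, the 3 phosphatases and ETV4 fell, SPRY1 rose, and the other 5 genes did not pass the test. A gene is said to rise or fall where limma gave a Benjamini-Hochberg adjusted p under 0.05 on log2(FPKM + 0.1), among 15813 genes whose FPKM averaged 0.1 or more. By that rule, 4 of the 10 genes fell and 1 rose, where 25.9% of all genes tested fell and 32.5% rose. The changes were small, with log2 fold changes from -0.74 for DUSP4 to 0.71 for SPRY1 and a median of -0.22, against a median of 0.10 over all genes tested. That background depends on the filter. Among the 12079 genes averaging an FPKM of 1 or more, 3951 fell and 4044 rose, with a median of 0.002. The same members were called with that filter, under which SPRY4 was too low to be tested. With each culture rescaled to the same total (TPM), SPRY2 also rose and DUSP6 no longer passed, so that 3 genes fell and 2 rose, against 21.4% and 37.4% of all genes tested on that scale. The study's own threshold for a differentially expressed gene (DEG), a Bonferroni-corrected p under 0.05 with a log2 fold change beyond 2, was met by 0 of the 10 in limma, against 1.51% of all genes tested that fell and 2.46% that rose past it. These were 238 and 389 genes. The study applied its threshold to tests from Cufflinks, so DEG here means a limma call that need not match the study's lists. At an unadjusted p under 0.05, limma gave 6 of the 10, against 62.7% of all genes tested.

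**Figure D1:**
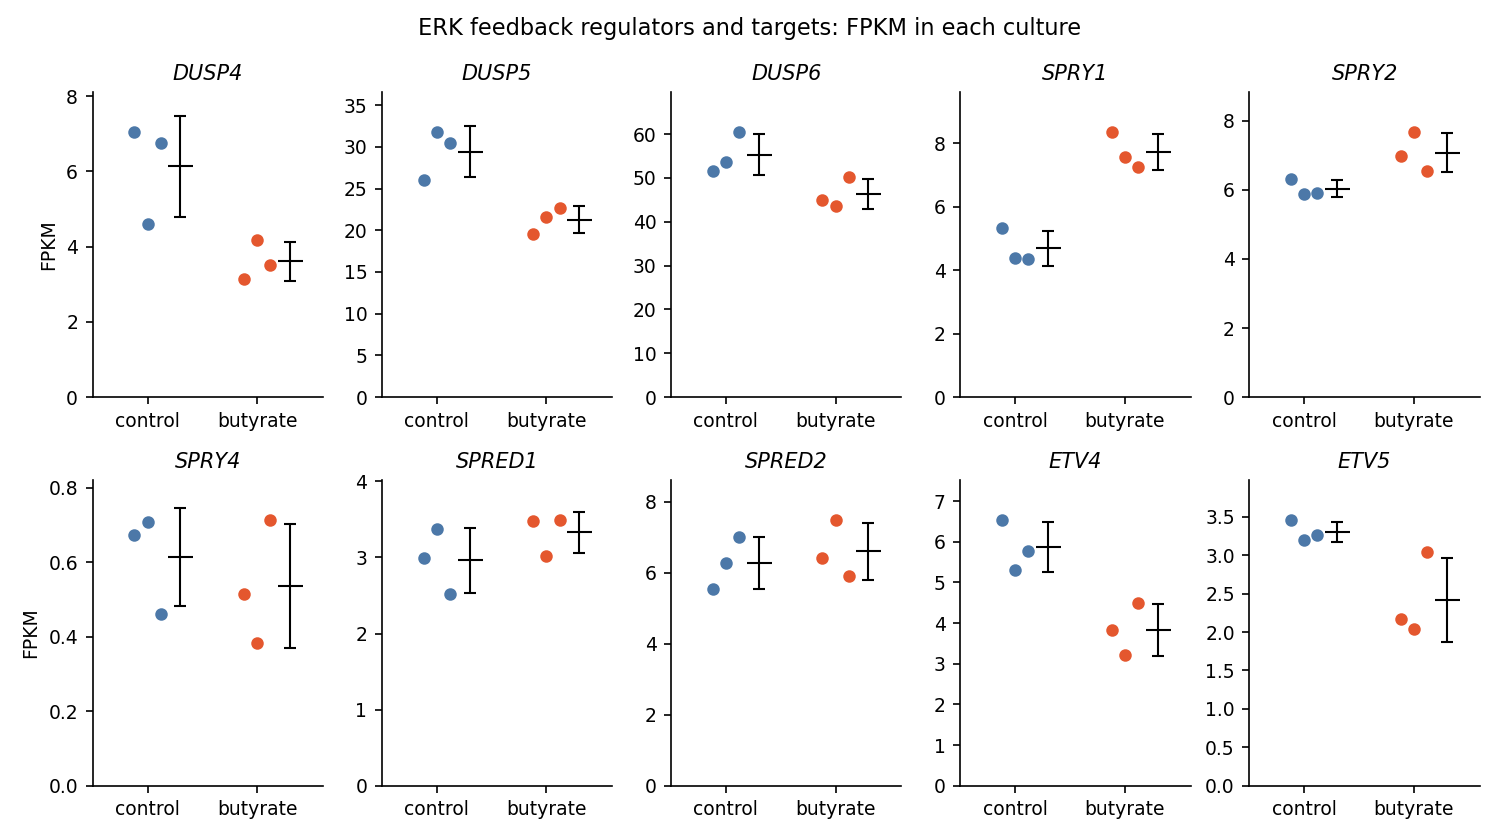
FPKM of each of the 10 genes in the 3 control (blue) and 3 butyrate (red) cultures, with the mean and SD of each group as bars; every vertical axis starts at 0 and has its own scale. The groups are separate for DUSP4, DUSP5, DUSP6, ETV4 and ETV5, which are lower after butyrate, and for SPRY1 and SPRY2, which are higher.

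Among DUSP4, DUSP5 and DUSP6, DUSP6 was the most abundant transcript and had the smallest log2 fold change. DUSP6, the cytoplasmic ERK phosphatase (chromosome 5 from 19275581 to 19280067), had an FPKM of 51.7, 53.6 and 60.5 in control replicates 1 to 3. After butyrate it had an FPKM of 44.9, 43.7 and 50.2. The lowest control culture was thus just above the highest butyrate culture. The group means were 55.2 ± 4.66 and 46.3 ± 3.45 (SD, n = 3 each), a log2 fold change of -0.25 (SE 0.08, limma adjusted p = 0.023). The fall of DUSP6 was the weakest call of the group. It was lost in 7 of the 15 other fits. These were without control replicate 3 (-0.19, limma adjusted p = 0.077), without butyrate replicate 1 (-0.24, limma adjusted p = 0.0714), without butyrate replicate 2 (-0.21, limma adjusted p = 0.0813) after rescaling to TPM (-0.13, limma adjusted p = 0.177), with quantile normalization (-0.18, limma adjusted p = 0.0711), without a filter (limma adjusted p = 0.121) and without the mean-variance trend (limma adjusted p = 0.076).

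DUSP5, an ERK-specific phosphatase of the nucleus (chromosome 26 from 31326744 to 31339518), fell more. Its FPKM was 26.0, 31.8 and 30.5 in control and 19.6, 21.6 and 22.7 after butyrate, and the groups did not overlap. The means of 29.4 ± 3.05 and 21.3 ± 1.59 (SD, n = 3 each) differed by -0.46 on the log2 scale (SE 0.10, limma adjusted p = 0.00298). The call for DUSP5 was kept in each of the 15 other fits.

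DUSP4, also nuclear and able to act on ERK as well as on the stress kinases (chromosome 27 from 24814794 to 24828585), had the largest fall of the 10 genes. Its FPKM was 7.05, 4.60 and 6.76 in control and 3.14, 4.17 and 3.51 after butyrate. Control replicate 2 stood well below the other control cultures and close to butyrate replicate 2. The mean fell by 41.2%, from 6.14 ± 1.34 to 3.61 ± 0.521 (SD, n = 3 each), which is -0.74 on the log2 scale (SE 0.19, limma adjusted p = 0.00995). Its 95% interval, from -1.17 to -0.30, overlapped that of DUSP5 (-0.68 to -0.24), and the difference in change between these genes was not tested. DUSP4 was measured with the fewest fragments of the phosphatases, between 30.0 and 61.1 per culture as implied by its bounds, against 353 to 536 for DUSP5 and 563 to 696 for DUSP6.

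Summed over the 3 phosphatases, the FPKM was 84.7, 90.0 and 97.7 in control and 67.6, 69.4 and 76.4 after butyrate. DUSP6 made up 60.8% ± 1.19 (SD, n = 3) of this sum in control and 65.0% ± 1.88 (SD, n = 3) after butyrate. DUSP4 made up 6.79% ± 1.61 (SD, n = 3) and 5.08% ± 0.801 (SD, n = 3). The order of the phosphatases, with DUSP6 first, DUSP5 next and DUSP4 a small part, was the same in each of the 6 cultures, and the DUSP6 share was higher in each butyrate culture than in any control culture.

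Of the Sprouty genes, SPRY1 rose and SPRY2 and SPRY4 did not pass the test. SPRY1, which encodes an inhibitor of receptor tyrosine kinase signaling upstream of RAF (chromosome 17 from 34748292 to 34755900), had an FPKM of 5.33, 4.40 and 4.35 in control and 8.37, 7.58 and 7.26 after butyrate. All 3 butyrate cultures lay well above the 3 control cultures. Its mean rose by 64.7%, from 4.69 ± 0.552 to 7.73 ± 0.570 (SD, n = 3 each), which is 0.71 on the log2 scale (SE 0.13, limma adjusted p = 0.00127). The call for SPRY1 was kept in each of the 15 other fits.

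SPRY2, the Sprouty gene with the highest level in control (chromosome 12 from 55683998 to 55689118), had an FPKM of 6.33, 5.87 and 5.91 in control and 6.99, 7.68 and 6.55 after butyrate. These groups did not overlap either, but they lay close together. The log2 fold change of SPRY2 was 0.22, with a 95% interval from -0.03 to 0.47 (limma, adjusted p = 0.111). It passed only after rescaling to TPM (0.35, limma adjusted p = 0.0251). SPRY4 (chromosome 7 from 55219763 to 55234094) was barely expressed, with an FPKM of 0.674, 0.707 and 0.462 in control and 0.514, 0.383 and 0.713 after butyrate. These values overlapped and rested on 5.86 to 14.9 implied fragments per culture. Its log2 fold change of -0.18 had a 95% interval from -0.91 to 0.54 (limma, adjusted p = 0.649), and a change within these bounds was not detectable at this depth.

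The shares of SPRY1 and SPRY2 within a culture shifted against each other. SPRY1 made up 41.3% ± 1.69 (SD, n = 3) of the summed Sprouty FPKM in control and 50.4% ± 2.16 (SD, n = 3) after butyrate, while SPRY2 made up 53.3% ± 1.90 (SD, n = 3) and 46.1% ± 2.67 (SD, n = 3). SPRY2 was above SPRY1 in the control cultures and in butyrate replicate 2, and SPRY1 was above SPRY2 in butyrate replicates 1 and 3. The sum itself was 12.3, 11.0 and 10.7 in control and 15.9, 15.6 and 14.5 after butyrate. The family's level thus lay higher in each treated culture, in the direction opposite to the phosphatase sum.

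SPRED1 and SPRED2 encode membrane proteins that hold the RAS-inactivating protein neurofibromin at the membrane, and neither passed the test. SPRED1 (chromosome 10 from 33950024 to 34069008) had an FPKM of 2.99, 3.37 and 2.52 in control and 3.48, 3.02 and 3.49 after butyrate. The log2 fold change of SPRED1 was 0.17 (95% interval from -0.20 to 0.54, limma adjusted p = 0.391). SPRED2 (chromosome 11 from 63637081 to 63763978) had an FPKM of 5.54, 6.27 and 7.02 in control and 6.42, 7.48 and 5.92 after butyrate. That of SPRED2 was 0.07 (95% interval from -0.24 to 0.38, limma adjusted p = 0.67). For both genes the control and butyrate cultures overlapped, and changes within those intervals cannot be told from none.

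The transcription factors ETV4 and ETV5 belong to the PEA3 group of ETS factors and are widely used as readouts of FGF and ERK signaling. ETV4 (chromosome 19 from 44068236 to 44083775) had an FPKM of 6.53, 5.32 and 5.76 in control and 3.82, 3.21 and 4.49 after butyrate. The groups did not overlap. Its mean fell by 34.6%, from 5.87 ± 0.614 to 3.84 ± 0.640 (SD, n = 3 each), which is -0.61 on the log2 scale (SE 0.16, limma adjusted p = 0.00957). The call for ETV4 was kept in each of the 15 other fits.

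ETV5 (chromosome 1 from 81725687 to 81784999) had an FPKM of 3.46, 3.20 and 3.26 in control and 2.16, 2.04 and 3.04 after butyrate. Its control cultures agreed closely, and butyrate replicate 3 lay much nearer to them than to the other treated cultures. On the log2 scale ETV5 differed by -0.46 (SE 0.18), which missed the threshold (limma, adjusted p = 0.06). Without butyrate replicate 3 it was -0.63 and passed (limma, adjusted p = 0.0162), as it did with quantile normalization (-0.71, limma adjusted p = 0.0139) and with scaling to a common median (-0.55, limma adjusted p = 0.0316). ETV4 made up from 62.4% to 65.4% of the summed FPKM of both genes in control and from 59.6% to 63.8% after butyrate.

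**Figure D2:**
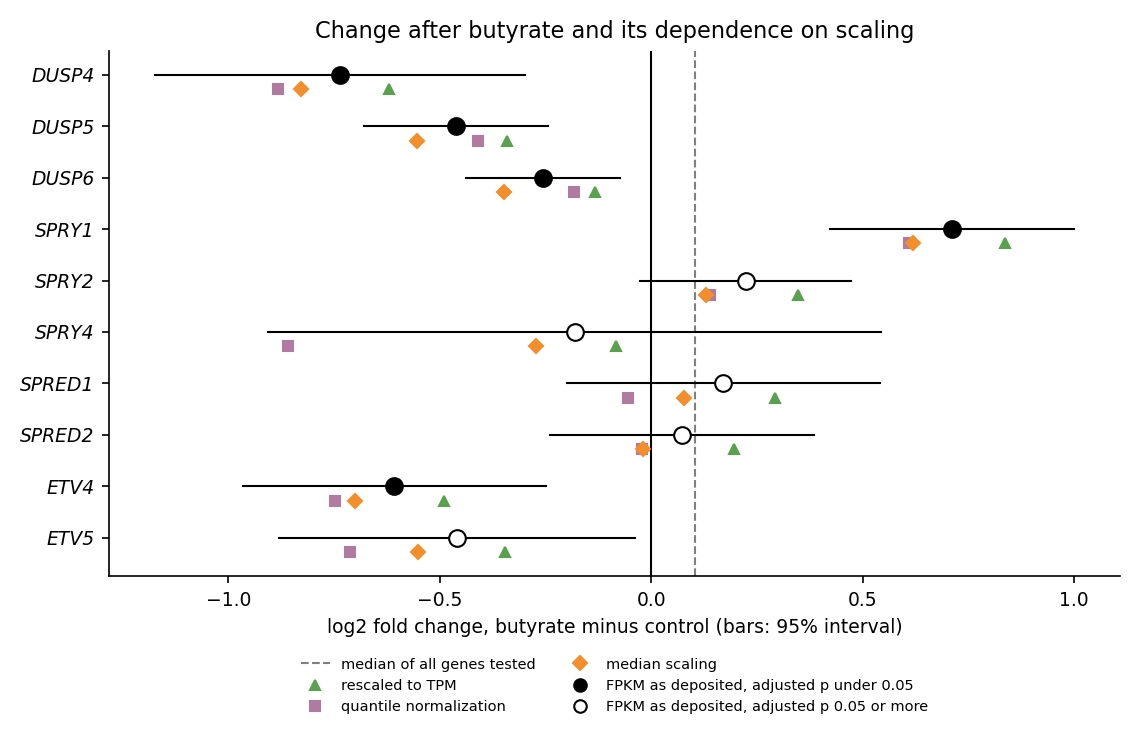
Log2 fold change of each gene, butyrate minus control, from limma on FPKM as deposited (circles, filled where the adjusted p was under 0.05) with its 95% interval, and the same value under 3 other scalings (small symbols). DUSP4, DUSP5, DUSP6, ETV4 and ETV5 stay left of 0 and SPRY1 and SPRY2 right of 0 under each scaling, while SPRED1 and SPRED2 lie near 0 and change side with the scaling.

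Over the 10 genes, the 3 butyrate values were all below the 3 control values in 5 and all above them in 2, where the groups were separated in that way in 28.9% and 36.1% of all genes tested. The remaining 3 genes, SPRY4, SPRED1 and SPRED2, had overlapping groups. Among all genes tested, the log2 fold change of DUSP4 stood at the 14.4th percentile, that of ETV4 at the 18.0th, those of DUSP5 and ETV5 at the 22.9th and 23.1st, and that of SPRY1 at the 73.6th. Neither end of the group was therefore extreme in these cultures, in which 58.4% of all genes tested rose or fell.

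In control REPC the order of levels was DUSP6, DUSP5, SPRED2, DUSP4, SPRY2, ETV4, SPRY1, ETV5, SPRED1 and SPRY4. DUSP6 and DUSP5 each stood clear of the next gene in every culture. The next 5 genes lay between a mean FPKM of 4.69 and 6.27, and each overlapped its neighbour in that order. SPRY1 stood clear of ETV5, ETV5 overlapped SPRED1, and SPRY4 was separate at the bottom. After butyrate, SPRY1 was the third gene in the order at 7.73 and SPRY2 the fourth at 7.07, and these overlapped each other. DUSP4 had moved down to the seventh place, overlapping ETV4 above it and SPRED1 below it. Against all genes tested, DUSP6 was at the 86.1st percentile of mean FPKM, DUSP5 at the 76.5th and SPRY4 at the 17.6th, and 5 of the 10 genes were above the median.

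**Figure D3:**
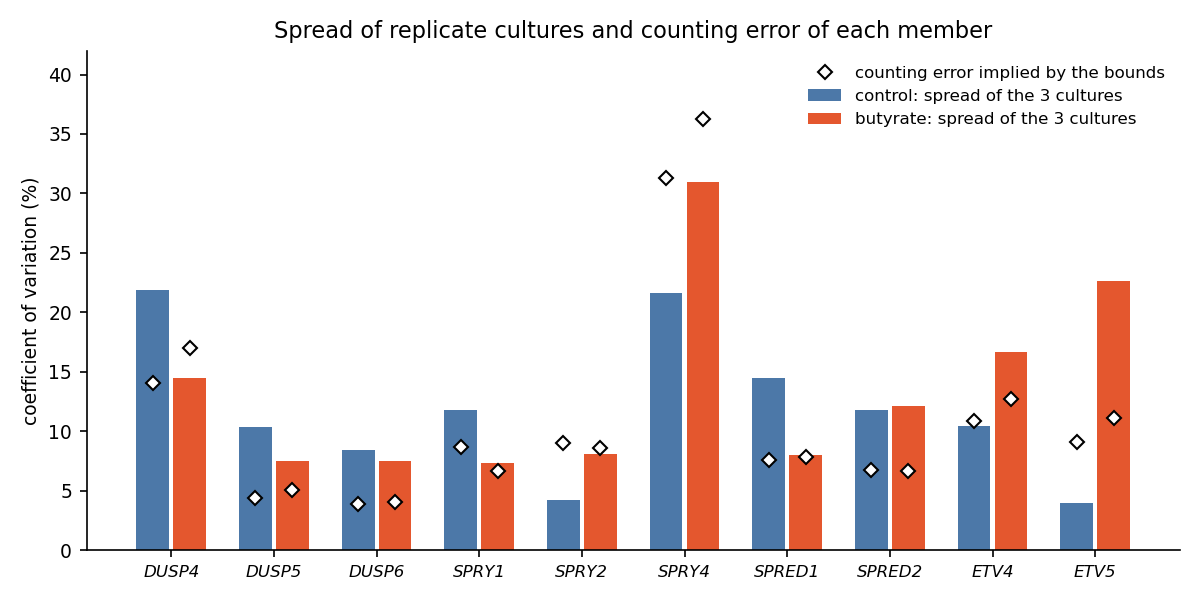
Coefficient of variation of the 3 cultures of each group (bars, blue for control and red for butyrate) beside the counting error that the deposited confidence bounds imply (diamonds), in percent. SPRY4 has the largest counting error, and ETV5 has a small spread in control and a large one after butyrate.

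The spread between replicate cultures was set against the counting error implied by the bounds. For SPRY4 the spread was 21.6% in control and 30.9% after butyrate, and the counting error was 31.3% and 36.3%. For DUSP6 and DUSP5, with many fragments, the spread of 7.47% to 10.4% was between 1.48 and 2.35 times the counting error. ETV5 differed between the groups, with a spread of 3.97% in control, under its counting error of 9.08%, and 22.6% after butyrate, above its counting error of 11.1%. With 3 cultures a spread is itself known only roughly.

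Ratios between paralogs within a culture depend little on how the culture was scaled. Of 6 ratios, each the log2 of FPKM + 0.1 of one gene over the other, 2 were separate between the groups. The SPRY1 to SPRY2 log2 ratio was -0.24, -0.41 and -0.43 in control and 0.26, -0.02 and 0.15 after butyrate, a difference of 0.49 (exact permutation test, two-sided, p = 0.1, adjusted p = 0.3 over the 6 ratios). The DUSP5 to DUSP6 log2 ratio was -0.99, -0.75 and -0.99 in control and -1.20, -1.01 and -1.14 after butyrate, a difference of -0.21 (exact permutation test, two-sided, p = 0.1, adjusted p = 0.3). With 3 cultures against 3 there are 20 divisions and p = 0.1 is the smallest p the exact test can give, so none of the ratios could pass a threshold of 0.05. The other 4 ratios overlapped between the groups. The difference was -0.48 for DUSP4 to DUSP6, -0.40 for SPRY4 to SPRY2, 0.10 for SPRED1 to SPRED2 and -0.15 for ETV4 to ETV5, with exact permutation p between 0.2 and 0.5 and adjusted p between 0.3 and 0.5.

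**Figure D4:**
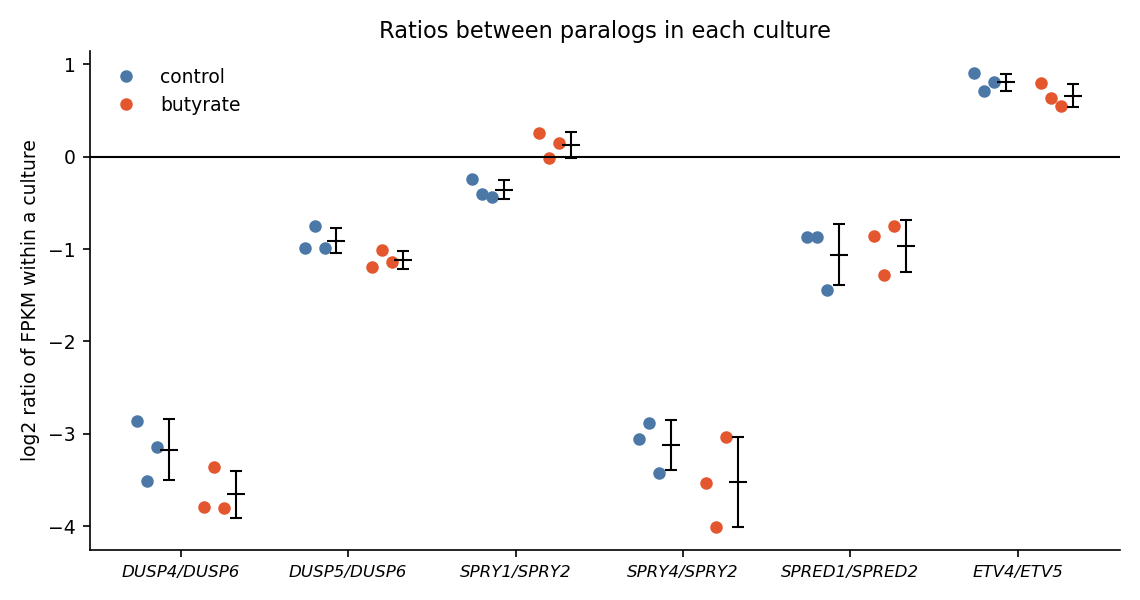
Log2 ratio of FPKM + 0.1 between paralogs in each control (blue) and butyrate (red) culture, with the mean and SD of each group as bars. The SPRY1 to SPRY2 ratio lies below -0.2 in each control culture and above it in each butyrate culture, and the DUSP5 to DUSP6 ratio is slightly lower after butyrate.

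The other genes of the pathway were read from 3 lists. Of 24 genes of the cascade, from FGF receptors and adaptors to ERK itself, 9 rose and 8 fell, with a median log2 fold change of 0.06 (11 rose and 5 fell after rescaling to TPM). The counts were 37.5% and 33.3% of the list, near the 32.5% and 25.9% of all genes tested that rose and fell. The 9 include FGFR4, which passed the filter only through its butyrate values. With the filter at a mean FPKM of 1, which leaves FGFR4 out, 8 rose and 8 fell. Of the 12079 genes tested with that filter, 4044 rose and 3951 fell. After rescaling to TPM, 37.4% of all genes tested rose and 21.4% fell. The largest falls were those of PTPN11, ARAF and FGFR1. PTPN11, the phosphatase SHP2 that relays receptor signals to RAS, had an FPKM of 22.2, 18.3 and 20.3 in control and 11.9, 8.95 and 9.39 after butyrate, with a log2 fold change of -1.01 (limma, adjusted p = 0.000155). The RAF kinase gene ARAF had a log2 fold change of -0.65 (limma, adjusted p = 0.00016), and the receptor gene FGFR1 one of -0.39 (limma, adjusted p = 0.000338). The kinases at the core moved both ways: MAP2K1 (MEK1) fell by 0.36 on the log2 scale, while MAP2K2 (MEK2) rose by 0.52 and MAPK3 (ERK1) by 0.78, 3 genes picked out after their values were seen.

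Of the cascade genes named for their rise, FGFR4 was tested only because of its butyrate values, and the size of its change is set by the added 0.1. This receptor gene was listed at 0 in the 3 control cultures and had an FPKM of 0.720, 0.626 and 0.675 after butyrate, from 11.5 to 12.5 implied fragments per culture. The receptor gene FGFR3 went from 1.41, 0.541 and 1.37 to 4.20, 4.25 and 3.71, with a log2 fold change of 1.88 (limma, adjusted p = 0.00108). KSR1, a scaffold that brings RAF, MEK and ERK together, had a log2 fold change of 0.78 (limma, adjusted p = 0.00687). Of the FGF receptors expressed in both groups, FGFR1 fell while FGFR3 and FGFR2 rose, FGFR2 from a mean FPKM of 27.4 to 37.6 (log2 fold change 0.46, limma adjusted p = 0.000177). FGFR2 was also picked out after its values were seen.

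Of 16 other inhibitors and paralogs, 13 were high enough to be tested, since DUSP2, DUSP9 and SPRY3 had a mean FPKM under 0.1. Of these, 2 rose and 2 fell, with a median log2 fold change of 0.17 (4 rose and 1 fell after rescaling to TPM, and 3 rose and 1 fell with quantile normalization). Each count of 2 was 15.4% of the list genes tested, against 32.5% of all genes tested that rose and 25.9% that fell. DUSP16, a phosphatase that acts mainly on the stress kinases, went from an FPKM of 1.80, 2.32 and 1.96 to 0.800, 0.674 and 0.927, with a log2 fold change of -1.24 (limma, adjusted p = 0.00124). PEBP1, a RAF-binding inhibitor, had a log2 fold change of -0.15 (limma, adjusted p = 0.00711), which turned to 0.13 with quantile normalization. LRIG1, which lowers receptor levels, rose with a log2 fold change of 0.63 (limma, adjusted p = 6.9e-05), and the FGF pathway inhibitor IL17RD was just inside the threshold at 0.72 (limma, adjusted p = 0.05 after rounding), a call that was lost in 11 of the 15 other fits. The other 9 genes did not pass.

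Of 15 other ERK-dependent genes and ETS factors, 8 fell and 3 rose, with a median log2 fold change of -0.31 (6 fell and 4 rose after rescaling to TPM). The counts were 53.3% and 20% of the list, against 25.9% of all genes tested that fell and 32.5% that rose. The largest changes of this list lay beyond those of the 10 feedback genes. ETV1, the third PEA3 factor beside ETV4 and ETV5, went from an FPKM of 15.1, 15.8 and 15.2 to 3.59, 3.25 and 4.10. Its log2 fold change of -2.05 (limma, adjusted p = 1.3e-06) also met the DEG threshold in limma. FOSL1, an AP-1 subunit whose protein ERK stabilizes, went from 9.76, 11.2 and 8.62 to 1.51, 1.20 and 1.07. Its log2 fold change was -2.88 (limma, adjusted p = 2.0e-06), and it was the other gene of this list to meet that threshold in limma. CCND1, the cyclin D1 gene, fell from a mean of 775 ± 5.81 (SD, n = 3) to 316 ± 8.48 (SD, n = 3), a log2 fold change of -1.29 (limma, adjusted p = 4.5e-08).

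Other genes of the same list went up. The immediate early gene EGR1 had an FPKM of 10.7, 10.5 and 16.4 in control and 38.0, 42.9 and 48.5 after butyrate, a log2 fold change of 1.80 (limma, adjusted p = 3.0e-05). PHLDA1, which is often used in scores of ERK output, rose by 0.63 on the log2 scale (limma, adjusted p = 8.4e-06), and the AP-1 gene JUNB rose by 0.45 (limma, adjusted p = 3.1e-05). The remaining genes of this list that fell were IER3 (-0.98 on the log2 scale), IER2 (-0.91), MYC (-0.71), ELK4 (-0.62) and EPHA2 (-0.31). FOS, ELK1, ELK3 and EPHA4 did not pass. Transcripts that ERK is known to induce thus lay on both sides of 0 in these cultures. DUSP4, DUSP5, DUSP6, ETV4, ETV1, FOSL1, CCND1, IER3, IER2, MYC and EPHA2 were lower, and SPRY1, EGR1, PHLDA1 and JUNB were higher.

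**Figure D5:**
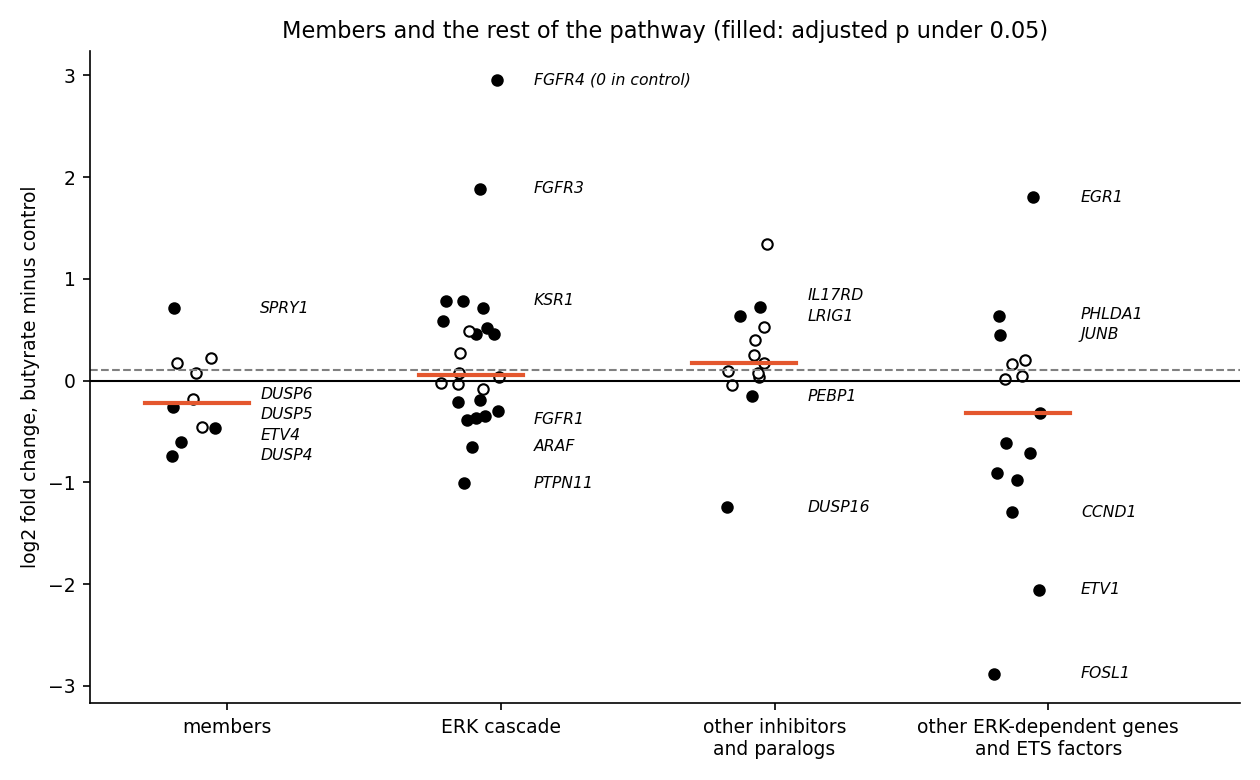
Log2 fold change, butyrate minus control, of the 10 genes (members) and of the 3 lists of other pathway genes; filled points had an adjusted p under 0.05, the red lines are the medians of the lists and the dashed line the median of all genes tested (0.10). The 10 genes lie between -0.74 and 0.71, while FOSL1, ETV1, CCND1, DUSP16, PTPN11, FGFR3, EGR1 and, not passing the test, SPRED3 lie beyond 1; FGFR4 was listed at 0 in control, so its plotted value depends on the added 0.1.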

How the data were processed

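RNA from 6 REPC cultures was sequenced. Reads were trimmed with Trim Galore (version 0.4.1), aligned with STAR and quantified with Cufflinks from uniquely mapped reads, and the authors deposited FPKM per gene with its confidence bounds. The submitters' processing notes name UMD 3.1. Listed starts count from 0 (lengths of 2931 named genes equal those of RefSeq on that reading and 249 otherwise), so 1 was added. Chromosomes were named from the gene names of RefSeq (ARS-UCD2.0).

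TNC and FOSL2, with a failed estimate, were left out. limma 3.58.1 (R 4.3.3) with a mean-variance trend was fitted to log2(FPKM + 0.1), a scale that understates changes of low genes, over 15813 genes averaging an FPKM of 0.1 or more, and was tested on simulated data. Adjusted p-values are Benjamini-Hochberg over all genes tested. They set the difference between groups against the spread between cultures of 1 calf, with information on spread shared across genes. Fragments per gene were inferred from FPKM and its upper bound, taken as 2 SD of a Poisson count, and cover counting error only (42.5% of those between 0.5 and 100 lay within 0.05 of a whole number).

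All 10 genes and, of each other list, up to 3 genes with the largest rise and 3 with the largest fall were chosen to be named. The remaining ERK-dependent genes and ETS factors are named too. A name on several entries was taken at its highest FPKM. The genes, lists and tests were chosen with earlier results of these data known. Alternatives were other pseudocounts, filters, scalings and thresholds, no trend, a replicate block and leaving out single cultures. Protein and promoter sequences were not used here.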

Additional observations from a re-analysis of the deposited data

How the results depend on the processing

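SPRY1, DUSP5 and ETV4 kept their direction and call in each of the 15 other fits, and DUSP4 lost its call only without a filter. The causes were not tested. Of the 10 feedback genes (members), 2 fell without a filter, and 2 rose after rescaling to TPM. With Bonferroni correction and no fold limit 0 members rose or fell, and 0 were DEGs in any fit, nor with a log2 fold change beyond 1. Falling cascade genes numbered 5 after rescaling to TPM. Rising inhibitors numbered 1 with a pseudocount of 0.01, without the trend, with median scaling and with the replicate block, and 4 after rescaling to TPM, while falling inhibitors numbered 1 without the trend, with quantile normalization and after rescaling to TPM. With a replicate left out, 3 to 5 members fell and 1 rose, and 1 to 2 inhibitors rose. PEBP1 reversed to 0.13 with quantile normalization. The SPRED1 to SPRED2 ratio difference of 0.10 turned negative without control replicate 3 (-0.0919) and without butyrate replicate 3 (-0.0106), and reached 0.26 at most when single cultures were dropped. TPM moved the median log2 fold change of all genes from 0.10 to 0.22.

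No pairing of the cultures by replicate number was detected. Deviations of same-numbered cultures correlated between -0.00431 and 0.0228 across genes, and 2 of 6 cultures correlated best with their own number. These correlations weigh low and high genes alike, so they cannot show that the cultures were unpaired. With the replicate block, 4 members fell and 1 rose. Low fragment numbers limit SPRY4 most.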

Other observations

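Butyrate replicate 3 held the highest butyrate value in 6 of the 10 genes (DUSP5, DUSP6, SPRY4, SPRED1, ETV4 and ETV5), where it did so in 31.2% of all genes tested. SPRY1 and SPRY2 had their lowest butyrate values in that culture, at an FPKM of 7.26 and 6.55. Among the 15 other ERK-dependent genes and ETS factors it was highest in 6, which include EGR1 at 48.5, FOS at 74.1 and MYC at 69.5. This was noticed after the values were seen and was not tested.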
